A study of Mus musculus with 2 samples.

Results

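The genes described here encode the sarcomere proteins of striated muscle other than the myosin heavy chains: the actins, troponins and tropomyosins of the thin filament, the myosin light chains and binding proteins, titin, the Z-disc and the M-band. The 44 members were chosen as a named list of such genes, each read through the probe sets annotated to that gene symbol alone, by name and not by a cut on any measured value. Of the 44 members 43 had such a probe set, 72 probe sets in all out of 34945 on the array with 1 gene symbol, and 43 of the 18193 genes with such a probe set. Xirp2 had none and is named here without a value.

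Transcript levels were measured in skeletal muscle with 2 Affymetrix Mouse Genome 430 2 arrays. One array carried RNA of wild-type mice and the other RNA of mice null for Jhdm2a, now named Kdm3a, a Jumonji-domain enzyme that removes methyl groups from a lysine of histone H3. Each array carried the combined RNA of 3 animals, and all animals were males aged 3 months from 129 embryonic stem cells with a C57BL/6 backcross of 4 generations. The labels do not name the muscle that was taken or say how the gene was disrupted. With 1 pooled array per genotype there was no replicate check, so no p-value was computed, and higher and lower describe these 2 arrays only. The number of arrays limits the precision.

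The signal of Kdm3a itself did not fall with the null label. The single probe set for this gene gave 406 in the wild-type-labelled pool and 488 in the null-labelled pool (log2 ratio 0.26). Whether it lies in the disrupted stretch of Kdm3a is not stated in the labels, so it settles nothing about them. The pools are called by their labels below, and each direction rests on those labels. The median signal over all 45037 non-control probe sets was 112 on both arrays.

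The sarcomere is the contractile unit of muscle. Thin filaments of actin slide past thick filaments of myosin, calcium binding to troponin moves tropomyosin off the myosin sites, and titin spans from the Z-disc, where thin filaments are anchored, to the M-band, where thick filaments are joined. Fast and slow fibres carry different forms of many of these proteins, so the forms together show fibre make-up as well as the amount of contractile tissue. In bulk RNA, fewer muscle fibres and less RNA per fibre cannot be told apart.

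Most sarcomere genes read slightly higher in the null-labelled pool, and a few read higher by about 1.6-fold. Log2 ratios, null-labelled over wild-type-labelled, were averaged over those probe sets of a gene that exceeded a signal floor of 182 in both pools, which 68 of the 72 did. All 43 members with a probe set were measured. The median log2 ratio of the members was 0.20 (1.15-fold) with an SD over genes of 0.22, beside a median of 0.04 and an SD of 0.46 over all 9696 measured genes. Above 0 stood 36 of the 43 members, against 55.7% of all measured genes. Sarcomere genes are bright on the array, and 36 of the 43 had a mean signal of at least 4000. Among the 714 genes of that brightness 73.1% stood above 0, with a median of 0.13. The members' median was 0.16 with the median ratio of all probe sets set to 0, 0.13 after quantile normalization and 0.09 after loess, where the medians of the bright genes were 0.09, 0.07 and 0.03. Members above 0 then numbered 35, 33 and 32. The medians of all measured genes were -0.004, 0.05 and -0.004 under these scalings. No share of all or bright genes above 0 is given for them, so these counts have no background share beside them.

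**Figure D1:**
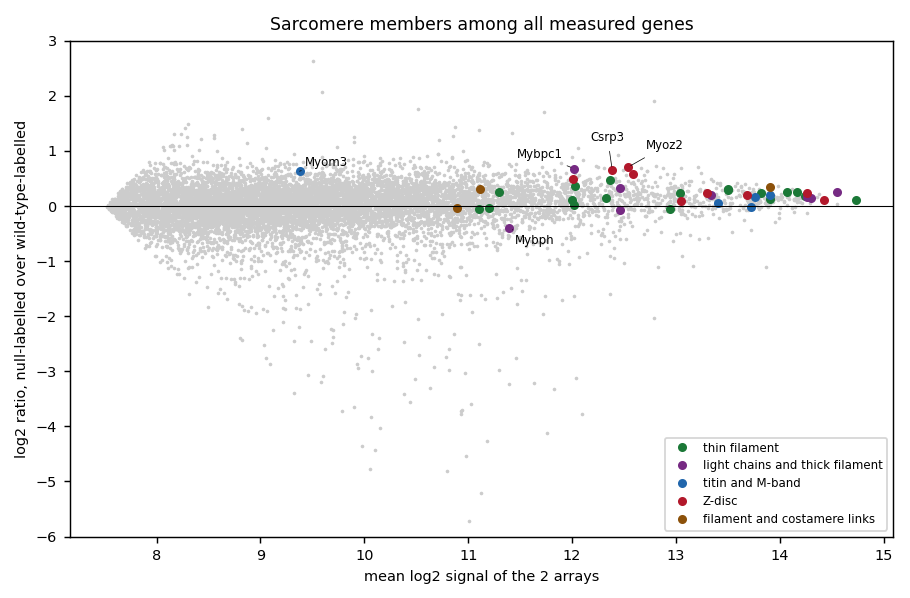
Log2 ratio of null-labelled over wild-type-labelled signal against the mean log2 signal of the 2 arrays, for the 9696 measured genes (grey) and the 43 measured sarcomere members (coloured by role). The members lie between -0.40 (Mybph) and 0.70 (Myoz2), mostly at the bright end and mostly just above 0, with Mybpc1, Myoz2, Csrp3 and Myom3 highest among them.

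A gene was counted as higher or lower when its value reached 1.5-fold and its measured probe sets had 1 sign. Of the 43 members 4 were higher, Myoz2, Mybpc1, Csrp3 and Myom3, against 3.35% of all measured genes and 3.08% of the bright genes. None of the 43 was lower, against 6.27% of all measured genes and 3.22% of the bright genes. No member reached 2-fold, which 0.371% of genes did upward and 2.36% downward. The values nearest the threshold were 0.63 for Myom3 inside it and 0.57 for Myoz1 outside it.

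Myoz2, which encodes a myozenin (calsarcin) that binds calcineurin and alpha-actinin at the Z-disc of slow and cardiac fibres, read 4654 in the wild-type-labelled pool and 7563 in the null-labelled pool. That is a log2 ratio of 0.70 (1.63-fold), above 98.3% of all measured genes. Csrp3, the muscle LIM protein of the Z-disc, read 4266 and 6713, a log2 ratio of 0.65 (1.57-fold). Myom3, the M-band myomesin of slow and intermediate fibres, was the dimmest of the 4 at 534 and 827, a log2 ratio of 0.63 (1.55-fold). Each of these genes rests on 1 probe set, so no spread between probe sets can be given. As a guide, probe sets of 1 gene differed with a pooled SD of 0.29 in log2 ratio over the 3719 genes with 2 or more, which covers no variation between mice.

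Mybpc1, the slow form of myosin binding protein C that ties thick to thin filaments, had 3 probe sets of unlike ratio. The first, 1444341_at, read 1938 in the wild-type-labelled pool and 5041 in the null-labelled pool, a log2 ratio of 1.38. The brightest, 1455645_at, read 14791 and 20260, a log2 ratio of 0.45. The third, 1442769_at, read 1237 and 1422, a log2 ratio of 0.20. All 3 were higher in the null-labelled pool, but their mean of 0.68 ± 0.62 (SD of 3 probe sets) passed 1.5-fold because of 1444341_at, and the brightest probe set alone does not reach it. Mybpc1 was the 1 member among 11 with several measured probe sets whose probe sets differed by 2-fold or more, which 3.98% of such genes did.

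The sequences before the starts of these 4 genes are shown because these members passed 1.5-fold. Acta1, the main actin of skeletal muscle, is set beside them as a bright member under the threshold. Each is the 250 bases before the first start site listed by RefSeq on GRCm38.p6, 5′ to 3′ on the gene's strand. Capitals mark matches to 4 motifs searched on both strands: the E-box CANNTG bound by myogenic factors, the M-CAT element CATTCC bound by TEAD factors, the MEF2 site and the CArG box bound by serum response factor.
Myoz2, chr3:123034988-123035237, minus strand: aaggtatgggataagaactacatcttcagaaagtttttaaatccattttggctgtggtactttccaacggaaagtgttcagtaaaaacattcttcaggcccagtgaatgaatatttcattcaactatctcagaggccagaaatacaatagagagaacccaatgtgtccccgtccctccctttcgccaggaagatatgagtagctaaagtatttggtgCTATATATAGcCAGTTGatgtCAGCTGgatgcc
Mybpc1, chr10:88605153-88605402, minus strand: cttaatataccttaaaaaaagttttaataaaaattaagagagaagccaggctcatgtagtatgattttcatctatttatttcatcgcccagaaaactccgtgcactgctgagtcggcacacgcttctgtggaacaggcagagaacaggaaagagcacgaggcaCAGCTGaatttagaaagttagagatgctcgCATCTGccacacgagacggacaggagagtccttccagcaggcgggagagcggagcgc
Csrp3, chr7:48848052-48848301, minus strand: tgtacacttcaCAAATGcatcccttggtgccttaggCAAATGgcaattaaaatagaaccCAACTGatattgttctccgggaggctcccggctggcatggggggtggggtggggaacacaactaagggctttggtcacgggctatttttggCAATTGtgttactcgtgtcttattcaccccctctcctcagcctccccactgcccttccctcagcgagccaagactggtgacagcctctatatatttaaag
Myom3, chr4:135759465-135759714, plus strand: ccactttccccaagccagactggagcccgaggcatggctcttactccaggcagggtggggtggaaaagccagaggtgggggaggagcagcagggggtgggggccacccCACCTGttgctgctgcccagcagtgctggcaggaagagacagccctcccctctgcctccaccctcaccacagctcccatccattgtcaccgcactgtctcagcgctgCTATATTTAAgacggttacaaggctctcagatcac
Acta1, chr8:123894776-123895025, minus strand: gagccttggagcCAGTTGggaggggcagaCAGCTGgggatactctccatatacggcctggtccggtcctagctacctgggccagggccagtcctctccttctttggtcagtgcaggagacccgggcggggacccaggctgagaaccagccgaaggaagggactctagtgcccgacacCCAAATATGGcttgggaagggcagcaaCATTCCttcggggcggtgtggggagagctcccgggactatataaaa

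Myoz2 held a MEF2 match from 33 to 24 bases before its start, with E-boxes from 22 and from 12 bases before it. Myom3 held a MEF2 match from 35 to 26 bases before its start and 1 E-box. Csrp3 held 4 E-boxes and Mybpc1 held 2, with no match to the other 3 motifs in this window. Acta1 held 2 E-boxes, a CArG match from 73 to 64 bases before its start and an M-CAT match from 46 to 41 bases before it. The 4 members past 1.5-fold thus shared no motif beyond the E-box, which 66% of the 27025 genes with a listed start have in this window. Among the 32 members listed there, 28 held an E-box, 9 an M-CAT (12.6% of all), 5 a MEF2 match (3.01% of all) and 5 a CArG match (1.4% of all). The 5 with a MEF2 match were Klhl41, Myom3, Myoz2, Ttn and Xirp2, and the 5 with a CArG match were Acta1, Actc1, Ldb3, Myl3 and Myom1. A match is a run of letters and not a bound site.

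Thin filament genes differed little between the arrays. Of 18 measured, 15 stood above 0, or 13 after quantile normalization or loess, and their median log2 ratio was 0.21. Acta1 read 16840 in the wild-type-labelled pool and 19992 in the null-labelled pool, a log2 ratio of 0.25. Actc1, the cardiac actin that skeletal fibres express before birth and at a low level after, read 15765 and 18794, also 0.25, and probe sets of such similar actins may share signal. Both actins stood slightly higher in the null-labelled pool, near 1.19-fold.

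Among the troponins, the fast forms had log2 ratios of 0.10 for Tnnt3, which anchors the complex to tropomyosin, 0.24 for Tnni2, the inhibitory subunit, and 0.24 for Tnnc2, the calcium sensor. Tnni2 had 3 probe sets, which read 21939 and 24114, 9446 and 12245, and 2243 and 2602 in the wild-type-labelled and null-labelled pools. All 3 were higher in the null-labelled pool, giving 0.24 ± 0.12 (SD of 3 probe sets). The value of Tnnt3, read at 26214 and 28116, was 0 after quantile normalization and -0.01 after loess, so it has no settled direction. The slow forms Tnnt1, Tnni1 and Tnnc1 had 0.01, 0.26 and -0.06. Tnnt1 read 4141 and 4168 and turned below 0 when the median ratio was set to 0, after quantile normalization and after loess. Tnnc1, which is also the cardiac troponin C, read 8028 and 7717.

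Tropomyosins, the coiled coils that lie along actin, were represented by several probe sets each. Tpm2, the beta form, read from 13607 to 28234 in the wild-type-labelled pool and from 15544 to 30204 in the null-labelled pool over 4 probe sets, and its brightest was the brightest non-control probe set of each array. All 4 were higher in the null-labelled pool, with a mean of 0.19 ± 0.06 (SD of 4 probe sets). Tpm1, the alpha form of fast fibres, had 4 probe sets with log2 ratios from -0.28 to 0.14 and a mean of -0.03 ± 0.19. Tpm3, the slow form, which also encodes cytoskeletal tropomyosins, had 4 measured probe sets from -0.36 to 0.10 and a mean of -0.06 ± 0.21. The lowest of these, 1427260_a_at, read 2645 in the wild-type-labelled pool and 2057 in the null-labelled pool, while 1449996_a_at and 1449997_at had 0.10 and 0.06. The remaining Tpm3 probe set lay under the floor on both arrays.

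Regulators of thin filament length included the member with the largest thin filament value. Lmod2, a leiomodin that nucleates actin and lengthens thin filaments, read 4490 in the wild-type-labelled pool and 6234 in the null-labelled pool, a log2 ratio of 0.47 (1.39-fold). Its relative Lmod3 read 3923 and 4250, a log2 ratio of 0.12. The pointed-end caps Tmod1 and Tmod4, the latter the main one of skeletal muscle, had 0.14 and 0.31. Klhl40 and Klhl41, Kelch proteins that stabilise leiomodin 3 and nebulin, had 0.36 and 0.29. Neb, the giant nebulin that runs along the thin filament, read 14587 and 16017, a log2 ratio of 0.13. All 7 were above 0, and they stayed above 0 under median, quantile and loess scaling.

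**Figure D2:**
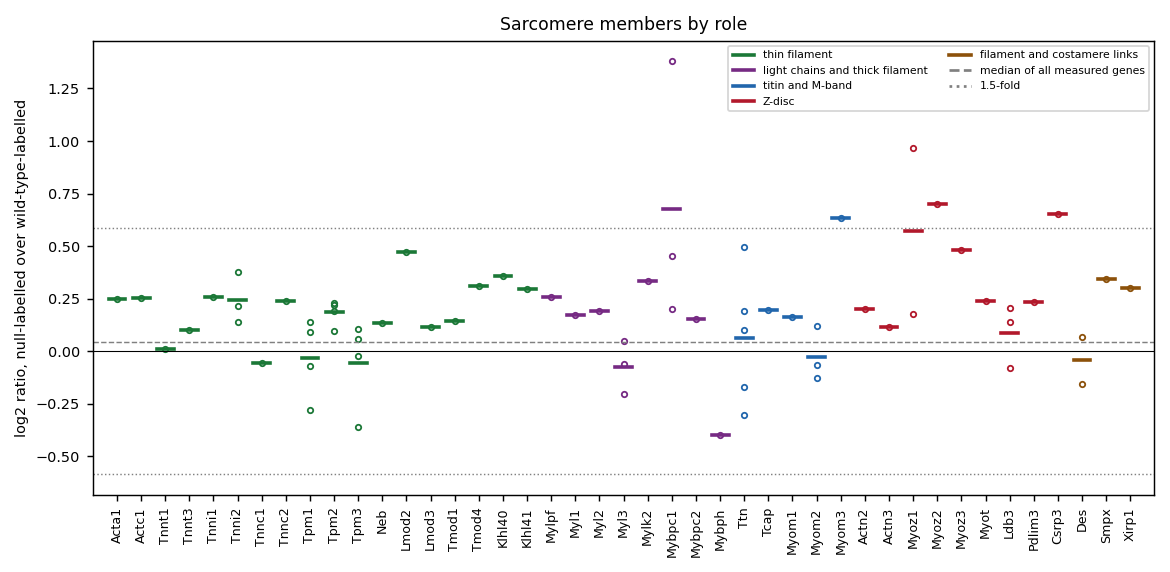
Log2 ratio of null-labelled over wild-type-labelled signal for the 43 measured sarcomere members, by role. Open circles are single probe sets past the floor in both pools, bars the mean over a gene's probe sets, dotted lines 1.5-fold and the dashed line the median of all measured genes at 0.04. Mybpc1, Myom3, Myoz2 and Csrp3 stand above the upper dotted line and no mean stands below the lower one. The values of Tnnt1, Tnnt3, Ttn and Ldb3, slightly above 0 here, fell below 0 after loess.

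The myosin light chains, which stiffen and regulate the myosin neck, had log2 ratios close to those of the actins. Mylpf, the fast regulatory chain, read 21905 in the wild-type-labelled pool and 26156 in the null-labelled pool, a log2 ratio of 0.26. Myl1, the fast essential chain, read 18449 and 20775, a log2 ratio of 0.17. Myl2, the regulatory chain of slow and cardiac muscle, read 9687 and 11072, a log2 ratio of 0.19. Myl3, the slow and cardiac essential chain, was the 1 light chain below 0, with -0.07 ± 0.13 (SD of 3 probe sets) and probe sets from -0.21 to 0.05. Mylk2, the kinase that phosphorylates the regulatory chain in skeletal muscle, read 5029 and 6341, a log2 ratio of 0.33.

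Of the myosin binding proteins, Mybpc2, the fast form of protein C, read 19087 in the wild-type-labelled pool and 21221 in the null-labelled pool, a log2 ratio of 0.15. Mybph, myosin binding protein H, was the lowest of all 43 members, with 3094 and 2344 and a log2 ratio of -0.40 (1.32-fold lower). It rests on 1 probe set, was not past 1.5-fold, and had values from -0.49 to -0.40 over the alternatives. The 3 genes therefore spanned nearly the whole range of the members, with Mybpc1 near the top and Mybph at the bottom.

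Of the 5 titin and M-band genes 4 stood above 0, or 3 after quantile normalization or loess, and their median log2 ratio was 0.16. Ttn, the giant spring of the sarcomere, had 5 measured probe sets, whose log2 ratios were -0.30, -0.17, 0.10, 0.19 and 0.50. Their mean of 0.06 ± 0.31 turned below 0 after quantile normalization and after loess. The highest, 1431928_at, read 3935 in the wild-type-labelled pool and 5547 in the null-labelled pool, and the lowest, 1444638_at, read 8988 and 7285. The remaining Ttn probe set lay under the floor on both arrays. Tcap, the telethonin that caps titin at the Z-disc, read 14355 and 16437, a log2 ratio of 0.20. The M-band myomesins Myom1, Myom2 and Myom3 had 0.16, -0.03 ± 0.13 (SD of 3 probe sets) and 0.63. Myom2, the myomesin of fast fibres, also had a probe set under the floor on both arrays.

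Z-disc genes included 2 of the 4 members past 1.5-fold. Of 9 measured, all stood above 0 (8 after loess, where Ldb3 fell to -0.01), with a median log2 ratio of 0.24. The 3 myozenins had 0.57, 0.70 and 0.48, the lowest of them at or above 93.5% of measured genes. Myoz1, the fast-fibre form, had a bright probe set, 1460202_at, that read 18696 in the wild-type-labelled pool and 21152 in the null-labelled pool, a log2 ratio of 0.18. Its other probe set, 1448636_at, read 1359 and 2656, a log2 ratio of 0.97, so its mean of 0.57 ± 0.56 (SD of 2 probe sets) rests on that dimmer one. Myoz3, a further fast-fibre form, read 3474 and 4855 in the probe set that exceeded the floor in both pools. Its second probe set read 124 and 255, past the floor in the null-labelled pool alone. The myozenins were thus higher in the null-labelled pool in each of their probe sets that exceeded the floor in both pools.

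The alpha-actinins, which cross-link actin at the Z-disc, had log2 ratios of 0.20 for Actn2 and 0.11 for the fast-fibre form Actn3. Actn3 read 21108 in the wild-type-labelled pool and 22832 in the null-labelled pool. Myot, the myotilin that binds alpha-actinin and filamin, had 0.24, and Pdlim3, a PDZ and LIM protein that binds alpha-actinin, had 0.23. Ldb3, also named Cypher or ZASP, had 0.09 ± 0.15 (SD of 3 probe sets) with probe sets from -0.08 to 0.20. These 5 genes differed from 0 by less than the pooled probe set SD of 0.29.

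The genes that tie the sarcomere to its surroundings had 3 measured members. Des, the muscle intermediate filament that links Z-discs, had a bright probe set at 12624 in the wild-type-labelled pool and 13234 in the null-labelled pool, a log2 ratio of 0.07, and a dim one at 296 and 265. Its mean was -0.05 ± 0.16 (SD of 2 probe sets). Smpx, a small protein of the costamere, read 13565 and 17233, a log2 ratio of 0.35. Xirp1, a Xin actin-binding repeat protein of junctions, read 1998 and 2460, a log2 ratio of 0.30.

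**Figure D3:**
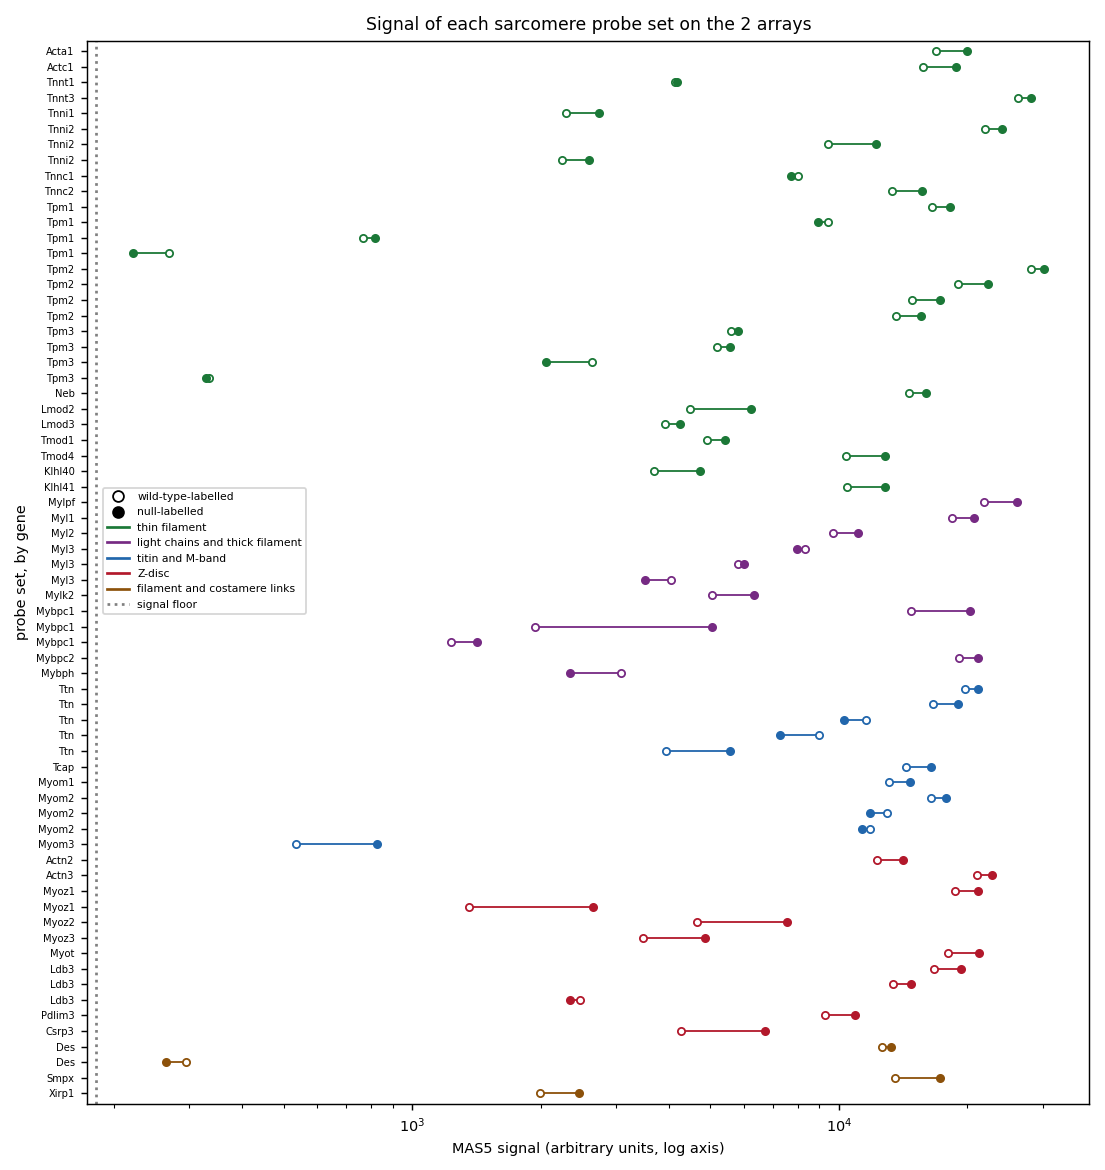
MAS5 signal, on a log axis, of the 68 sarcomere probe sets past the floor in both pools, in the wild-type-labelled (open) and null-labelled (filled) pool, grouped by role. Most filled points lie slightly to the right of the open ones, farthest for Mybpc1 1444341_at (1938 and 5041) and Myoz1 1448636_at (1359 and 2656). Positions of different probe sets do not compare the levels of genes.

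Over the 11 members with 2 or more measured probe sets the median SD was 0.16, against 0.19 over 3719 genes. In 7 of the 11 (Tpm1, Tpm3, Myl3, Ttn, Ldb3, Myom2 and Des) probe sets disagreed in sign, which 40.7% of such genes did.

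Fast and slow forms showed no common shift against each other. The 12 fast-form members had a median log2 ratio of 0.24 and the 10 slow-form members 0.23, and after loess both medians were 0.13. The slow forms spread more, with an SD over genes of 0.34 against 0.17, and the 4 members past 1.5-fold were all listed as slow forms, while the slow forms Tnnt1, Tnnc1, Tpm3 and Myl3 lay between -0.07 and 0.01. Without the probe sets whose names end in _s_at, _x_at or _a_at, which can match several transcripts, the slow-form median was 0.41, because Tnnt1 and Tnni1 then had no probe set left. In 5 of 8 pairs of fast and slow forms of 1 protein the fast form had the higher log2 ratio, under the deposited, median, quantile and loess scalings alike. The difference, fast minus slow, was largest upward for troponin C (0.29, Tnnc2 against Tnnc1) and the essential light chain (0.25, Myl1 against Myl3). Among these 8 pairs the difference was largest downward for myosin binding protein C (-0.53, Mybpc2 against Mybpc1). The myomesins Myom2 (-0.03) and Myom3 (0.63), which lie farther apart, were not paired because Myom2 was listed as a shared form. For troponin T, troponin I, the regulatory light chain and tropomyosin the difference lay between -0.02 and 0.09. For the myozenins (Myoz1 against Myoz2) it was -0.13. The 8 pairs thus differed from 0 by no more than the pooled probe set SD of 0.29, apart from protein C and, at about that SD, troponin C. That SD is the spread of single probe sets of a gene. It is not the spread of a difference between genes, so it marks out no pair.

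**Figure D4:**
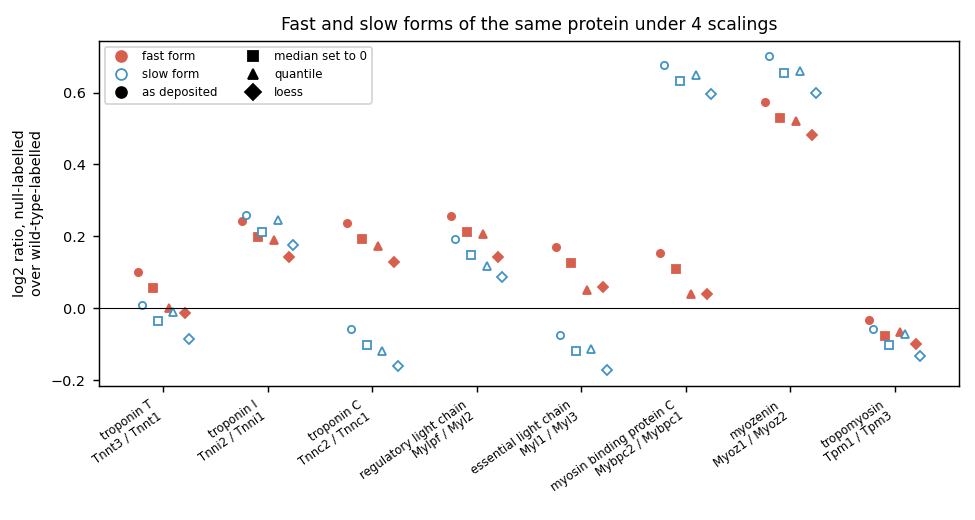
Log2 ratio of null-labelled over wild-type-labelled signal of the fast (filled) and slow (open) form of 8 sarcomere proteins under 4 scalings (marker shapes). The slow Mybpc1 and both myozenins stand highest, and the fast forms lie above the slow ones for troponin C and the essential light chain under each scaling. Tnnt1 and Tnnt3 lie on both sides of 0 depending on the scaling.

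Other genes of the sarcomere and its assembly, 52 in a list that holds no member, gave a similar picture. Of 42 measured, 33 stood above 0 and the median log2 ratio was 0.25, with 4 at least 1.5-fold higher and 2 lower. The list is broad and not limited to genes particular to striated muscle. Lmod1 (-0.42) and Synpo2 (0.36), for example, are also among the smooth muscle markers used below. Of all measured genes 55.7% stood above 0, 3.35% were higher and 6.27% lower, so the 2 lower genes are near the background share. Among the 714 genes with a mean signal of at least 4000, 73.1% stood above 0 and the median was 0.13. Higher were Hspb7 (0.88 ± 0.48, SD of 3 probe sets), a small heat shock protein of muscle, Ankrd1 (0.86) and Ankrd23 (0.70), titin-bound ankyrin repeat proteins, and Synpo2l (0.60 ± 0.73, SD of 3 probe sets), a Z-disc protein. Ankrd1 was dim, with 205 in the wild-type-labelled pool and 373 in the null-labelled pool, while Ankrd23 read 7453 and 12130. Lower were Fhl3 (-0.67), a LIM protein, and Smyd2 (-0.60), a lysine methyltransferase found at titin. Among genes for general muscle identity, all 10 listed markers were measured, with log2 ratios from -0.09 (Myh7) to 0.25 (Acta1, itself a member) and a median of 0.15. Markers of the labelled tissue were thus bright on both arrays.

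Markers of other tissues also differed between the arrays, and those of adipocytes and hepatocytes were lower in the null-labelled pool. Of 10 listed adipocyte markers 8 had a probe set. All 6 measured on both arrays were at least 1.5-fold lower in the null-labelled pool, and the other 2 exceeded the floor in the wild-type-labelled pool alone. Their summed signal was 59035 in the wild-type-labelled pool and 7721 in the null-labelled pool, and Ucp1, which defines brown fat, read 14885 and 283. For 9 hepatocyte markers with a probe set the summed signals were 8465 and 962, with 4 past the floor in the wild-type-labelled pool alone, 2 measured and lower, and Ahsg, Fgb and Tat under the floor on both. The part of these tissues in the slightly higher sarcomere signals was not tested. Since both arrays are scaled to 1 common level, a value here is relative to the other RNA of its pool.

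Several members are also made in heart or in regenerating fibres, so those markers are given too. Of 12 cardiac markers 9 lay under the floor on both arrays, among them Myh6 at 105 and 140 in its brighter probe set, Tnni3 at 28.1 and 29.1, and Myl7 at 89.3 and 53.7. Tnnt2, the cardiac troponin T, exceeded the floor in the wild-type-labelled pool alone. Its brightest probe set read 264.5 and 182.1, the latter barely under the floor of 182.18, and its second read 210 and 146. The 2 measured were Gja1, a connexin made in many tissues, and Myl4, both lower in the null-labelled pool. The cardiac markers summed to 4239 and 2340 with those under the floor included. Most of each sum came from Gja1, whose measured probe sets averaged 3636 in the wild-type-labelled pool and 1543 in the null-labelled pool. Of 6 satellite cell and regeneration markers 4 were measured, with log2 ratios from -0.21 to 0.05. Myf5 exceeded the floor in the null-labelled pool alone, with 162.5 in the wild-type-labelled pool and 312.1 in the null-labelled pool. Pax7 lay under the floor on both arrays, at 65 and 159.5 and at 66.2 and 67.4 in its probe sets. The 6 markers summed to 2427 and 2471 with those under the floor included. The embryonic and neonatal myosins Myh3 and Myh8 had -0.21 and -0.14. Smooth muscle markers, 7 of 9 measured, had a median of 0.36 and sums of 10198 and 12659, and the 3 of 6 Schwann cell markers with a probe set had a median of 0.57 and sums of 5993 and 9239. Tendon markers summed to 10984 and 10371. Skin markers summed to 494 and 640 with signals under the floor included, and only 1 of the 3, Krt10 (log2 ratio 0.17), was measured. Krt14 lay under the floor on both arrays, and Krt5 exceeded it in the null-labelled pool alone. The part of these cell types in the members' values was not tested.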

How the data were processed

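The authors deposited 1 linear MAS5 intensity for each probe set and array. The program is named, without a version, per the submitters' processing notes. The 2% trimmed mean was 500 for each array, so scaling preceded deposit, and no detection calls are in the table used here. Gene symbols came from the platform annotation. Of 45037 non-control probe sets, 34945 had 1 symbol, 932 had several and 9160 were unnamed here. The floor was the 60th percentile of both arrays' signals (182). Log2 ratios were averaged per gene over single-symbol probe sets exceeding this floor in both pools. Shares over all measured genes are given for scale and do not replace a test of genotype, which 1 array per genotype does not allow. Members and lists were chosen with earlier results of these data known. The genes named are all 44 members, Kdm3a, up to 6 genes with the largest ratio of 1 sign from a list of other sarcomere genes, and cell type markers. Smyd1 in the closing observations stands outside this rule. Probe sets of a member that disagreed are given singly. Alternatives were median, quantile and loess scaling (span 0.3), a floor at the 75th percentile (467), no floor with a pseudocount of 1, the brightest probe set, and no _s_at, _x_at or _a_at probe sets. The log2 ratios of 18 hybridisation controls averaged -0.02 with an SD of 0.09. This covers error from hybridisation onward and no step before it. The procedure was tested on simulated data. Python 3.11.15 with numpy 2.4.6, pandas 2.3.3 and statsmodels 0.14.6 was used. Promoter sequences are from RefSeq on GRCm38.p6.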

Additional observations from a re-analysis of the deposited data

How the results depend on the processing

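The count of members at least 1.5-fold lower was 0 under all 7 alternatives, and the count higher lay between 3 and 5. Csrp3 was lost after loess (0.55), Mybpc1 with the brightest probe set (0.45), and Myoz3 was added with no floor (0.76). The median log2 ratio of all members was 0.158 with the median ratio set to 0, 0.126 after quantile normalization and 0.0942 after loess. After loess the fast-form median was 0.13 and the slow-form median 0.13, and without _s_at, _x_at and _a_at probe sets the slow-form median was 0.41. Of 295 further values of single members, 293 moved by less than the pooled probe set SD of 0.29, and the exceptions were Myoz1 with its brightest probe set (0.18) and Myom2 with no floor (-0.71). Members above 0 numbered from 32 to 40 of 43 over the settings with all members measured, and 32 of 37 without the _s_at, _x_at and _a_at probe sets. The share of all genes above 0 is given for the main setting only. With no floor, 1908 genes of 18193 were higher and 2522 lower, against 325 and 608 of 9696 with it, and 187 and 330 of 6565 with the floor at the 75th percentile. No paired analysis was possible because each genotype has 1 pooled array with no replicate number.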

Other observations

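In genes whose measured probe sets were all higher on the null-labelled array, the brightest probe set often gave the smaller ratio. This held for Mybpc1, Myoz1, Tnni2 and Tpm2, the 4 members of this kind, whose brightest probe set lay below the mean of their others. Among the other sarcomere genes it held for 9 of 12, including Hspb7, where the brightest probe set had a log2 ratio of 0.45 and the dimmest 1.40, and Smyd1, a muscle methyltransferase of sarcomere assembly named after its values were seen, where the brightest had 0.27 and the other 3 measured lay between 0.57 and 0.73. Over all genes it held for 64% of 1317, and for 76.8% of the 319 whose brightest probe set reached 4000. These are values with no test.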
